A study of Ovis aries with 32 samples.

Results

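SELP encodes P-selectin, an adhesion receptor of endothelial cells and platelets, and CD14, CD68 and CD86 encode proteins by which macrophages and their relatives are commonly recognised. These 4 genes, of 2402 that could be named on the array, were followed in sheep cerebral arteries at 4 ages, with and without phenylephrine (PHE), an agonist of alpha-1 adrenergic receptors. They were taken by name. Every probe, the short DNA on the array that captures RNA of 1 sequence, that carried the name of any of them was kept, which gave 9 probes of 15008.

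Middle cerebral arteries were cut into segments from 4 stages, which the sample labels give as premature fetuses at 96 days of gestation, near-term fetuses at 146 days of gestation, newborn lambs of 12 hours and adult sheep of 2 years. The study's methods give other ages for the near-term and newborn groups. At each age 4 arrays held RNA of segments kept with 10 µM PHE for 30 min, and 4 arrays held RNA of segments without PHE, called untreated here, so that 32 arrays formed 8 groups. The design asks how activation of alpha-1 receptors alters RNA in the artery as it matures.

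P-selectin is stored in granules of endothelial cells and platelets, and on stimulation it moves to the cell surface, where leukocytes that carry its ligand begin to roll. CD14 binds bacterial lipopolysaccharide and passes it to the receptor TLR4, CD68 is a heavily glycosylated protein of lysosomal membranes that is abundant in macrophages, and CD86 is a surface ligand through which antigen-presenting cells co-stimulate T cells. Macrophages lie in the outer coat of arteries and around the vessels of the brain, and endothelial cells can also carry CD14.

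Each array gave an intensity for each probe, read by the authors with the background subtracted. Here arrays were put on 1 scale by taking each intensity relative to the array's own 75th percentile, as log2, so that a value of 0 marks that percentile and a step of 1 is a 2-fold difference. A test needed 1 group of the comparison in which the scanner software had marked all 4 spots of the probe as well above background. The test was limma, a linear model fitted across all probes with 1 spread per probe over the 8 groups. A probe was called higher or lower at a Benjamini-Hochberg adjusted p under 0.05 with a fold of at least 1.5. All means are given with the SD over 4 arrays, and the number of arrays limits the precision.

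The 75th percentile lay 8.53 to 12.1 times over background on premature untreated arrays and 10.3 to 13.3 times on premature PHE arrays. It lay 7.66 to 10.3 times over background on newborn untreated arrays, 8.17 to 10.0 on newborn PHE arrays, 11.6 to 19.7 on adult untreated arrays and 9.85 to 12.3 on adult PHE arrays. Near-term arrays differed most in brightness, with 1.43 to 15.6 on untreated arrays, of which replicate 4 was the dimmest, and 4.64 to 20.3 on PHE arrays, of which replicate 1 was the dimmest. All 8 premature arrays shared 1 slide, as did all 8 newborn arrays. The near-term PHE arrays shared a slide with only 1 near-term untreated array, replicate 4, and the adult PHE arrays shared a slide with 2 of the 4 adult untreated arrays. Premature and newborn arrays belonged to 1 of 2 scan runs and near-term and adult arrays to the other.

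Of the 9 probes, 3 measured SELP (SELP-a, SELP-b and SELP-c), 3 measured CD14 (CD14-a, CD14-b and CD14-c), 1 measured CD68 (CD68-a) and 2 measured CD86 (CD86-a and CD86-b). The accession of the probe gave the name in 6 cases. SELP-a, CD14-c and CD68-a had their names only because their group means matched a gene in the study's supplementary gene table, which lists genes altered by PHE. Their direction under PHE is therefore not independent evidence. Probes differ in how strongly they bind, so no probe's level is set against another's. The plot of the 4 main probes shows every array, and the letter a marks the probe of each gene that the most sources or ages named. SELP-a and SELP-b tied on that count, and SELP-a was taken for its higher mean signal. The supplementary table pointed to SELP-b for newborn SELP and to CD14-b for adult CD14.

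**Figure D1:**
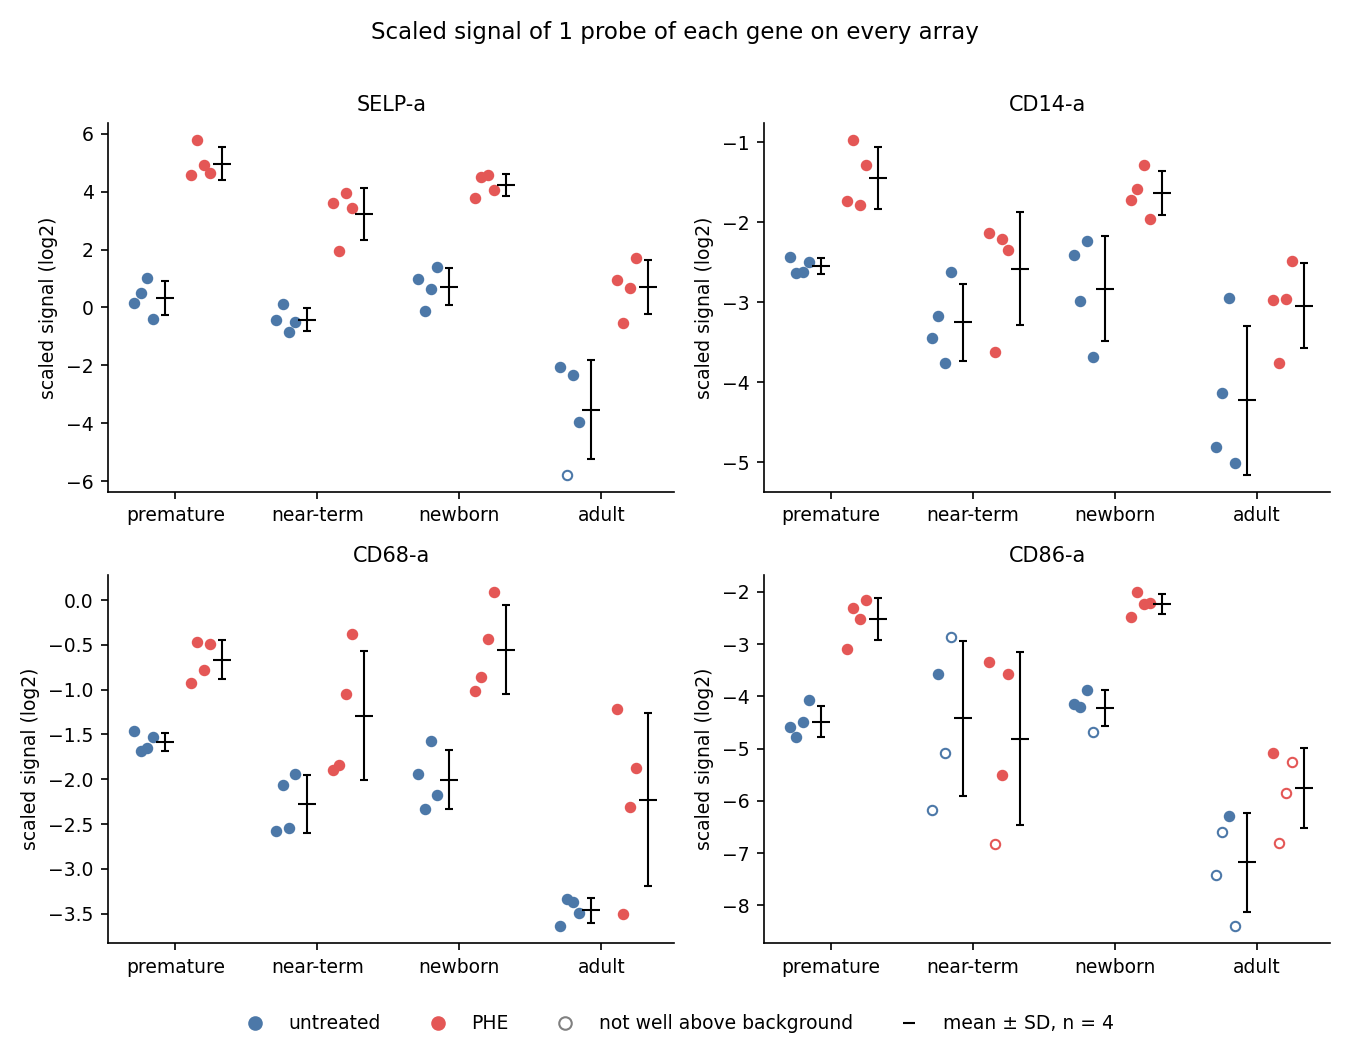
Scaled signal (log2, vertical axis) of SELP-a, CD14-a, CD68-a and CD86-a on each of the 32 arrays, by age and treatment, where open circles mark arrays not well above background and bars show mean ± SD of 4 arrays. The 4 PHE arrays of SELP-a lie above the 4 untreated arrays at every age, and every probe is lower on adult untreated arrays than on premature untreated arrays.

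After PHE, SELP was called higher in the premature fetus and the newborn lamb by each of its probes. In near-term and adult arteries it was called by SELP-a alone, and whether SELP-a measures the same RNA as SELP-b and SELP-c was not settled. CD14 and CD86 were called higher in the premature fetus and the newborn lamb. CD68 was called higher in newborn, adult and near-term arteries, and its near-term difference turned to -0.10 under a model-based background correction (normexp). SELP-b and SELP-c were not called in near-term and not tested in adult arteries. Of the 8 premature probes tested, 6 were called, all higher, where 17.4% of all probes tested were called. In near-term arteries 2 of 7 were called higher beside 35.9% of all probes. The newborn count was 7 of 8, higher in each case, beside 11.1% of all probes, and the adult count was 2 of 5 beside 3.84%. In near-term and adult arteries the calls were those of SELP-a and CD68-a, named by the supplementary gene table alone. No probe named by accession was called at either of these ages. With 1 array left out the counts fell to between 1 and 3 in premature and between 3 and 6 in newborn arteries, and ran from 1 to 5 in near-term and from 1 to 6 in adult arteries. Under normexp, without a filter on dim probes and with the replicate number as a block they were 3, 3 and 2 in premature arteries and 4 each in newborn arteries. Among all probes the shares called higher were 9.18%, 17.5%, 5.90% and 3.02% in the same order of ages. The members were chosen with earlier results of these data known, so the counts describe them and do not test them as a group. The segments were whole tissue, in which more cells of a type and more RNA per cell cannot be told apart.

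SELP, the adhesion gene, had the largest differences of the 4 genes. On premature arrays SELP-a read 0.15, 0.50, 1.01 and -0.39 untreated and 4.57, 5.78, 4.91 and 4.63 after PHE. All 4 PHE arrays stood far above the untreated ones, with no overlap. The group means were 0.32 ± 0.59 and 4.97 ± 0.56, a rise of 4.65 on the log2 scale, or 25.2-fold (adjusted p = 1.89e-06).

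Near-term untreated arrays read -0.43, 0.11, -0.86 and -0.50 for SELP-a, and near-term PHE arrays read 3.59, 1.94, 3.95 and 3.43. PHE replicate 2 was the lowest of the treated arrays and still above every untreated one. SELP-a rose by 3.65, or 12.5-fold (means -0.42 ± 0.40 and 3.23 ± 0.89, adjusted p = 5.10e-05). On the slide that held the 4 PHE arrays and untreated replicate 4, the difference was 3.73.

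In newborn arteries SELP-a read 0.98, -0.13, 0.63 and 1.40 untreated and 3.77, 4.52, 4.57 and 4.06 after PHE, again without overlap. The rise was 3.51, or 11.4-fold (means 0.72 ± 0.65 and 4.23 ± 0.38, adjusted p = 0.000153). Pairs of untreated and PHE arrays with the same replicate number differed by 2.67 to 4.65, and the premature pairs by 3.90 to 5.28. The text of the study does not say that the numbers pair segments of 1 animal.

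Adult untreated arteries held the lowest SELP-a signals, -2.05, -5.79, -2.34 and -3.95, of which replicate 2 was not well above background. After PHE the adult arrays read 0.96, -0.52, 0.66 and 1.70, all above the untreated arrays. SELP-a rose by 4.23, or 18.8-fold (means -3.53 ± 1.72 and 0.70 ± 0.92, adjusted p = 1.48e-05). Without untreated replicate 2 the rise was 3.48. On the slide with 4 PHE and 2 untreated arrays it was 4.62.

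SELP-b and SELP-c, named by accession, tracked each other closely over the 32 arrays (r = 0.989, where arrays of a group share their age and treatment) and SELP-a less closely (0.884 and 0.888). After group means were removed r was 0.984 between SELP-b and SELP-c, but 0.526 and 0.539 between SELP-a and these 2, so whether SELP-a measures the same RNA was not settled. Across premature arrays SELP-b ran from -2.46 to -1.85 untreated and from 0.73 to 1.66 after PHE, and it rose by 3.23 (adjusted p = 0.0259). The newborn ranges were -2.81 to -2.17 and 1.12 to 1.52, a rise of 3.71 (adjusted p = 0.0153). In near-term arteries its 4 PHE arrays, -0.34, -2.11, -0.87 and 0.37, lay above the untreated ones, -2.60, -2.53, -3.44 and -2.68, and the difference of 2.07 was not called (adjusted p = 0.106, 1.94 within the slide), while after quantile normalization SELP-b (2.66) and SELP-c (3.33) were called there. SELP-c differed by 3.1 (premature, adjusted p = 0.0410), 2.47 (near-term, adjusted p = 0.0655, 2.67 within the slide) and 3.62 (newborn, adjusted p = 0.0238), with groups apart at each of these ages and 2 of 4 near-term untreated arrays well above background. Adult untreated arrays were well above background for SELP-b and SELP-c on replicate 3 alone, and adult PHE arrays on 3 of 4, so neither was tested there.

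The calls of SELP-b and SELP-c were less firm than those of SELP-a. The premature call of SELP-b ended when untreated replicate 1 (3.29), 3 (3.13) or 4 (3.16) was left out, and when PHE replicate 1 (3.23) or 2 (3.02) was. That of SELP-c ended when any 1 of the 8 premature arrays was left out (2.90 to 3.22), and also with the replicate number as a block in the model (adjusted p = 0.0640). The newborn call of SELP-c ended when untreated replicate 2 (3.58) or 4 (3.48) was left out, and when PHE replicate 3 (3.66) or 4 (3.62) was. Without near-term PHE replicate 2, SELP-c was called there (2.94), as it was with a floor of 0.01 on the scaled signal, and the methods' t-test called SELP-b and SELP-c there at the same differences. Without adult PHE replicate 2, which read -7.47 and -7.53, SELP-b (4.52) and SELP-c (4.89) passed the filter through the PHE arrays and were called in adult arteries, with only 1 of 4 untreated arrays well above background, so these differences are largely against background.

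**Figure D2:**
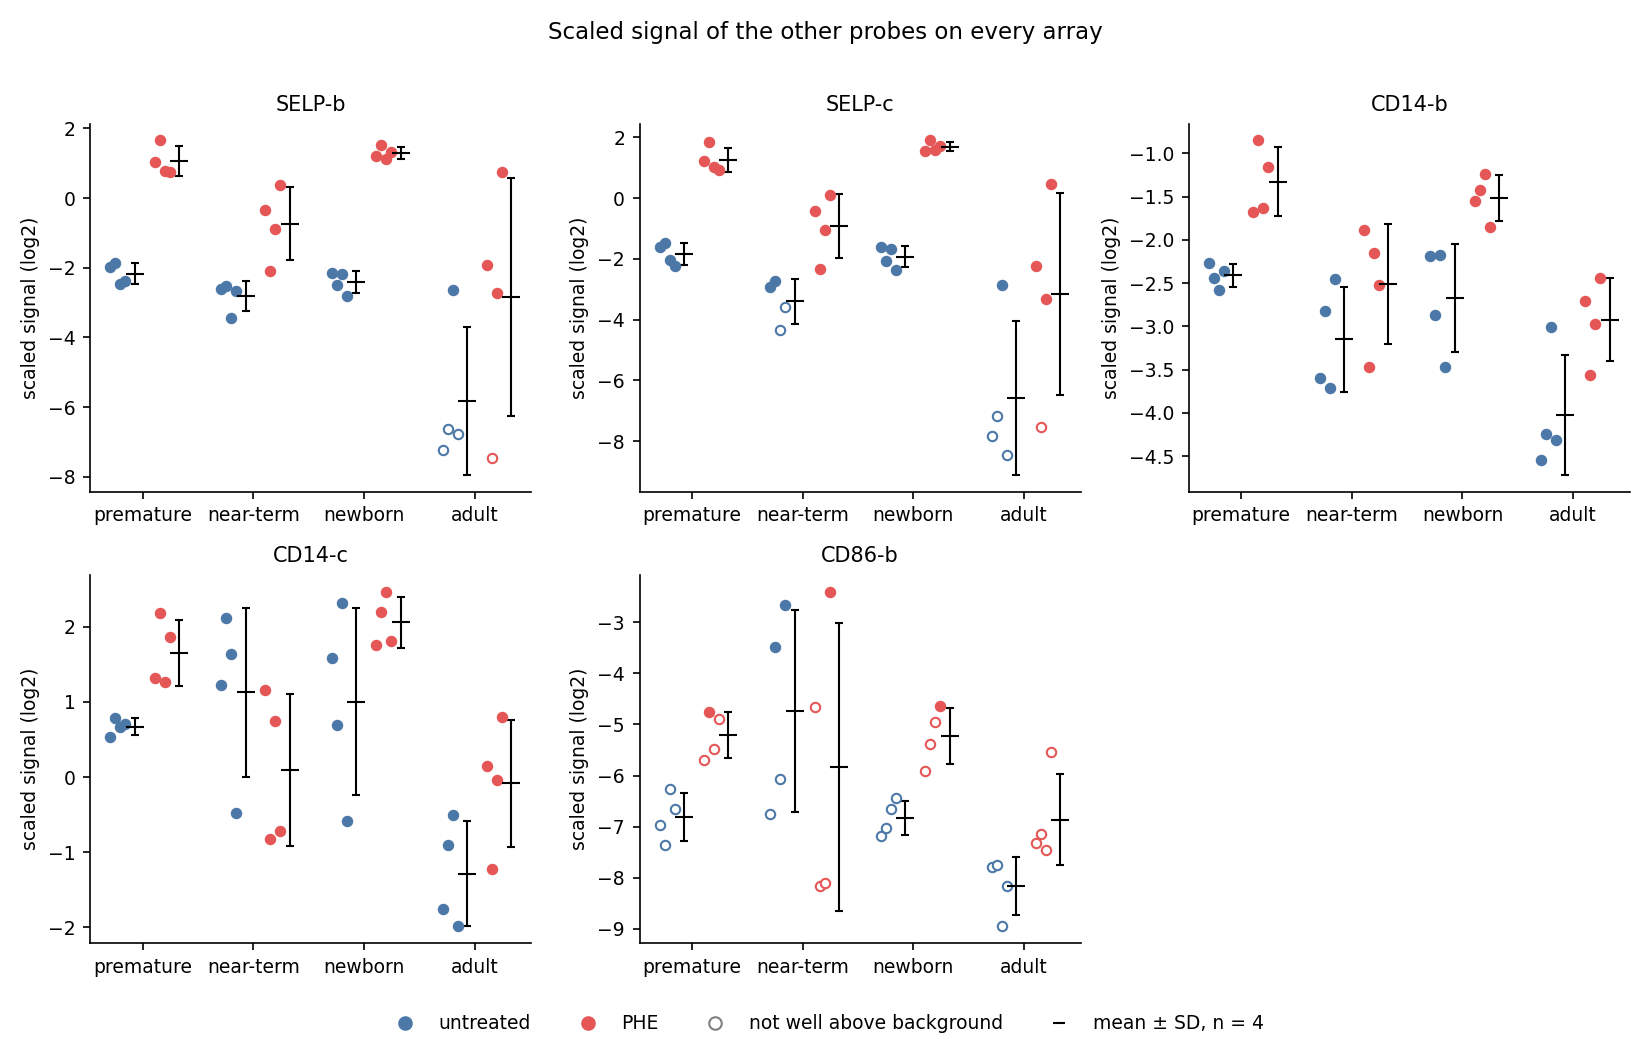
Scaled signal (log2, vertical axis) of SELP-b, SELP-c, CD14-b, CD14-c and CD86-b on each of the 32 arrays, by age and treatment, where open circles mark arrays not well above background and bars show mean ± SD of 4 arrays. SELP-b and SELP-c separate PHE from untreated arrays at every age but the adult, and CD86-b is mostly not well above background.

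CD14, the lipopolysaccharide co-receptor, was called higher by CD14-a and CD14-b in premature and newborn arteries, by about 2-fold. The premature values of CD14-a were -2.43, -2.63, -2.62 and -2.49 untreated and -1.73, -0.97, -1.78 and -1.29 after PHE. The untreated arrays lay close together, and all 4 PHE arrays lay above them. The rise was 1.10, or 2.14-fold (means -2.54 ± 0.10 and -1.44 ± 0.38), at an adjusted p of 0.04996, just under the threshold.

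On newborn arrays CD14-a read -2.41, -2.98, -2.23 and -3.69 untreated and -1.72, -1.58, -1.29 and -1.95 after PHE, so the groups were apart although untreated replicates 2 and 4 were low. It rose by 1.19, or 2.28-fold (means -2.83 ± 0.66 and -1.64 ± 0.28, adjusted p = 0.0459). CD14-b, a probe that followed CD14-a closely (r = 0.987 over the 32 arrays), rose by 1.08 in premature arteries (adjusted p = 0.0382) and by 1.16 in newborn arteries (adjusted p = 0.0370), with the groups apart at both ages.

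These CD14 calls lay near the threshold. Under normexp CD14-a and CD14-b were not called in premature (0.50 and 0.45) or newborn arteries (0.94 and 0.90), nor after quantile normalization (1.1 for both in premature, 1.24 and 1.21 in newborn arteries), nor in premature arteries with scaling to the median (0.98 and 0.96). The premature call of CD14-a ended without any 1 of the 8 arrays (0.94 to 1.21), and that of CD14-b when any of the untreated replicates was left out (1.13, 1.1, 1.03 and 1.10 without replicates 1 to 4), or PHE replicate 2 (0.92) or 4 (1.02). In newborn arteries both ended without untreated replicate 2 (CD14-a 1.14, CD14-b 1.09) or 4 (0.90 and 0.89), or without PHE replicate 1 (1.22 and 1.17), 2 (1.17 and 1.12), 3 (1.08 and 1.06) or 4 (1.30 and 1.27). With the replicate number as a block, CD14-a and CD14-b were not called in premature arteries (adjusted p = 0.0600 and 0.0592) or in newborn arteries (0.0592 and 0.0616), at the same differences.

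Near-term CD14-a arrays overlapped, at -3.44, -3.17, -3.75 and -2.62 untreated and -2.14, -3.62, -2.21 and -2.34 after PHE, where PHE replicate 2 stood alone at the bottom. The differences of CD14-a, 0.67 (adjusted p = 0.178), and of CD14-b, 0.64 (adjusted p = 0.168), were not called, turned to -1.0 and -1.08 under normexp, where both were called lower, and were 0.05 and -0.05 within the slide. Without PHE replicate 2 both were called higher (1.02 and 0.96). Adult CD14-a arrays read -4.81, -4.14, -2.95 and -5.01 untreated and -2.97, -3.76, -2.95 and -2.48 after PHE. Untreated replicate 3 lay among the PHE arrays, and the adult differences of 1.19 for CD14-a (1.43 within the slide) and 1.11 for CD14-b (1.47 within the slide) were not called (adjusted p = 0.102 for both). Both were called without untreated replicate 3 (1.61 and 1.44) or PHE replicate 2 (1.43 and 1.32).

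CD14-c, which the study's supplementary gene table named from near-term arteries, was called at no age by the main test. Premature arrays read 0.53, 0.78, 0.66 and 0.71 untreated and 1.32, 2.18, 1.27 and 1.86 after PHE, apart from each other, with a difference of 0.99 (adjusted p = 0.244), which was called when premature arrays alone set the spread and by the methods' t-test with and without adjustment. Near-term arrays read 1.22, 2.12, 1.64 and -0.48 untreated and 1.17, -0.83, 0.74 and -0.72 after PHE. The near-term difference was -1.03 with overlap (adjusted p = 0.145), it was 0.57 within the slide, and without untreated replicate 4, the dimmest array, it was called lower (-1.57). The differences were 1.06 in newborn arteries (adjusted p = 0.261) and 1.21 in adult arteries (adjusted p = 0.341, 1.25 within the slide). Over the 32 arrays CD14-c followed CD14-a at r = 0.770 and, after group means were removed, at 0.598.

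CD68, the lysosomal glycoprotein of macrophages, rose most clearly in newborn arteries. Newborn CD68-a arrays read -1.94, -2.33, -1.57 and -2.18 untreated and -1.01, -0.86, -0.44 and 0.09 after PHE, fully apart. It rose by 1.45, or 2.73-fold (means -2.0 ± 0.33 and -0.55 ± 0.50, adjusted p = 0.00569), and was called with any 1 of the 8 newborn arrays left out (1.23 to 1.60).

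On near-term arrays CD68-a read -2.58, -2.06, -2.54 and -1.94 untreated and -1.89, -1.84, -1.05 and -0.38 after PHE, apart by a narrow margin. The difference was 0.99, or 1.98-fold (means -2.28 ± 0.33 and -1.29 ± 0.72, adjusted p = 0.0263), it was not called with scaling to the median (0.83) or within the slide (0.65), and it turned to -0.10 under normexp. The call ended when untreated replicate 1 (0.89) or 3 (0.90) was left out, and when PHE replicate 3 (0.91) or 4 (0.68) was. It also ended when near-term arrays alone set the spread, and by the methods' t-test with and without adjustment.

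Adult CD68-a arrays read -3.64, -3.34, -3.37 and -3.50 untreated and -1.22, -3.50, -2.31 and -1.87 after PHE. PHE replicate 2 lay among the untreated arrays, and the other 3 PHE arrays lay above them. CD68-a rose by 1.24, or 2.36-fold (means -3.46 ± 0.14 and -2.23 ± 0.96, adjusted p = 0.0410, 1.26 within the slide). The call ended under normexp (0.90), after quantile normalization (0.97), with the slide as a block (1.20), with the replicate number as a block (adjusted p = 0.0549), and when untreated replicate 1 (1.18), 2 (1.28), 3 (1.27) or 4 (1.22) was left out, or PHE replicate 1 (0.90), 3 (1.26) or 4 (1.12). That call ended as well without a filter on dim probes, when adult arrays alone set the spread, and by the methods' t-test, adjusted or not. Without PHE replicate 2 the rise was 1.66.

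Premature CD68-a arrays stood apart, at -1.46, -1.69, -1.65 and -1.53 untreated and -0.92, -0.47, -0.78 and -0.49 after PHE, yet the difference of 0.92 was not called (adjusted p = 0.0678). It was called when premature arrays alone set the spread of the probe, at the same difference, by the methods' t-test with and without adjustment, and after quantile normalization (0.94).

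CD86, the co-stimulatory ligand, was called higher by CD86-a in premature and newborn arteries, but not under normexp (0.45 and 1.21). Premature CD86-a arrays read -4.59, -4.78, -4.50 and -4.06 untreated and -3.09, -2.31, -2.53 and -2.16 after PHE, all well above background and apart. It rose by 1.96, or 3.90-fold (means -4.48 ± 0.30 and -2.52 ± 0.41, adjusted p = 0.0293). Newborn arrays read -4.15, -4.20, -3.87 and -4.68 untreated, of which 3 of 4 were well above background, and -2.48, -2.0, -2.24 and -2.21 after PHE. The newborn rise was 1.99, or 3.98-fold (means -4.23 ± 0.34 and -2.23 ± 0.19, adjusted p = 0.0378).

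The premature CD86-a call ended when untreated replicate 1 (1.93), 2 (1.86) or 3 (1.96) was left out, or when PHE replicate 2 (1.89), 3 (1.97) or 4 (1.84) was, and the newborn call when any 1 of the 8 newborn arrays was left out (1.84 to 2.11). With the replicate number as a block neither was called (adjusted p = 0.0581 and 0.0741, at the same differences). Near-term arrays were well above background for CD86-a on 1 of 4 untreated and 3 of 4 PHE arrays. They read -6.17, -3.57, -5.09 and -2.86 and then -3.35, -6.82, -5.50 and -3.57, an overlap over nearly the whole range, and were not tested. Adult arrays were well above background on 1 of 4 arrays in each group, at -7.41, -6.60, -6.29 and -8.40 untreated and -5.09, -6.80, -5.86 and -5.25 after PHE, and were not tested either. CD86-b was well above background on none of the premature, newborn and adult untreated arrays, on 1 of 4 PHE arrays in premature and newborn arteries and on none in adult arteries, and on 2 of 4 untreated and 1 of 4 PHE near-term arrays, so it gave no test at any age.

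**Figure D3:**
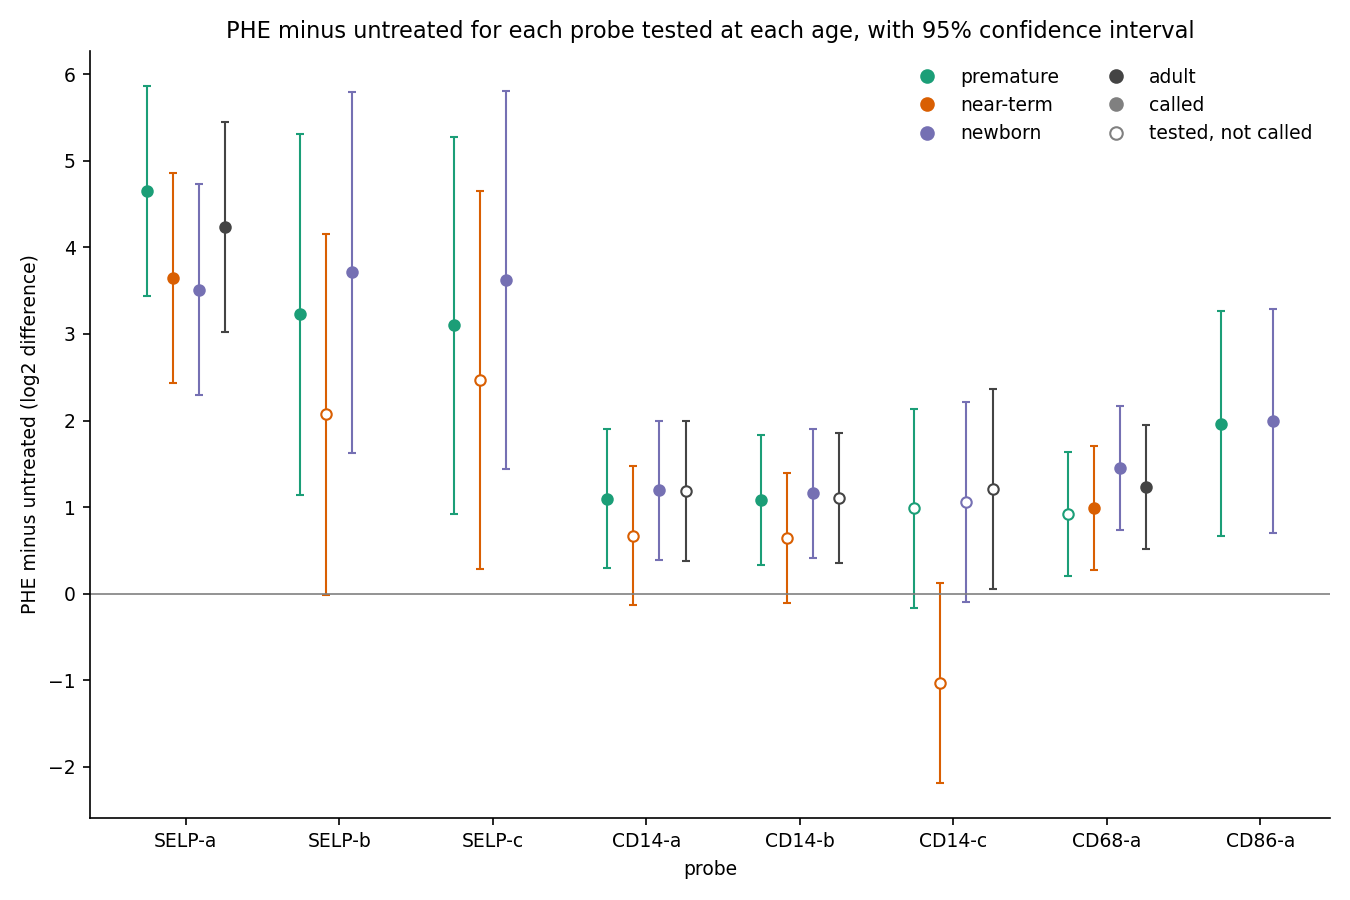
PHE minus untreated (log2 difference, vertical axis) for each probe tested at each age, with its 95% confidence interval, filled where called. All filled points lie above 0, the near-term point of CD68-a turns to -0.10 under normexp background correction, as do the open near-term points of CD14-a and CD14-b to -1.0 and -1.08, and the near-term point of CD14-c at -1.03 is 0.57 within the slide.

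Whether PHE acted differently between ages was asked by the difference of the PHE differences. No probe of the 4 genes was called by the main test in any of the 6 pairs of ages. The counts at an unadjusted p under 0.05, with the same fold limit, were 2 of 8 for near-term against premature, 2 of 8 for newborn against near-term, 1 of 7 for adult against near-term, and 0 of 8 for the other pairs. The same limits were passed by 19.9%, 25.3% and 25.3% of all probes in the first 3 pairs. They were passed by 2.42% for newborn against premature, 9.92% for adult against premature and 4.96% for adult against newborn. After adjustment, 4.46% of all probes were called for near-term against premature, 10.8% for newborn against near-term and 10.7% for adult against near-term. The shares were 0.00968% for newborn against premature, 0.847% for adult against premature and 0.0961% for adult against newborn. Pairs that share an age share arrays.

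For SELP-a the differences between ages ran from -1.14 (newborn minus premature, 95% confidence interval -2.86 to 0.58) to 0.72 (adult minus newborn, -0.997 to 2.44). CD86-a passed the filter against near-term arteries only through premature or newborn arrays, with 4 of 8 near-term arrays well above background. Its gaps are therefore partly against background. They were -2.35 for near-term minus premature (adjusted p = 0.125) and 2.38 for newborn minus near-term (adjusted p = 0.0828). The former was called without near-term PHE replicate 1 (-2.84), and the latter when near-term untreated replicate 1 (2.96) was left out, or PHE replicate 1 (2.87) or 4 (2.79). Both were called under normexp (-2.40 and 3.16) and with the slide as a block (-3.91 and 3.94), and the latter with scaling to the median (2.52). Under normexp 6 probes of the 4 genes were called for newborn minus near-term, among them also CD14-a (1.95) and CD68-a (1.22), 2 for adult minus near-term, among them CD14-a (1.65), and 1 for near-term minus premature. Of all probes, normexp called 3452, 2272 and 308 in these pairs, where the main test called 1144, 1109 and 477. CD14-c gave -2.02 (adjusted p = 0.137), 2.09 (adjusted p = 0.0864) and, for adult minus near-term, 2.24 (adjusted p = 0.0667).

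Without PHE, the 4 genes had low levels in adult arteries. The markers of other cells given further below also differed between untreated ages, and their part was not tested. Untreated SELP-a had means of 0.72 ± 0.65 newborn, 0.32 ± 0.59 premature, -0.42 ± 0.40 near-term and -3.53 ± 1.72 adult, with no call among the first 3 by the main test. Adult SELP-a was lower, with differences of -3.85 from premature (adjusted p = 3.82e-06), -3.11 from near-term (adjusted p = 0.000124) and -4.25 from newborn arteries (adjusted p = 1.26e-06), and with every adult array below every array of the other ages. In each pair SELP-a passed the filter through the younger arrays, with 3 of 4 adult arrays well above background. Without adult untreated replicate 2, the array that was not, the 3 differences were -3.10, -2.36 and -3.50.

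CD68-a followed the same order of adult against the rest, with means of -1.58 ± 0.10 premature, -2.0 ± 0.33 newborn, -2.28 ± 0.33 near-term and -3.46 ± 0.14 adult. It was lower in adult arteries, with differences of -1.88 (from premature, adjusted p = 4.85e-05), -1.18 (near-term, adjusted p = 0.00715) and -1.46 (newborn, adjusted p = 0.000970), with no overlap. The near-term difference was not called after quantile normalization (-0.45), with each array scaled to its median (-0.66) or with only the arrays of the ages compared (-1.18, adjusted p = 0.0555).

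CD14-a had means of -2.54 ± 0.10 premature, -2.83 ± 0.66 newborn, -3.25 ± 0.48 near-term and -4.23 ± 0.93 adult. Adult arrays were lower than premature arrays (-1.68, no overlap, adjusted p = 0.000612) and than newborn arrays (-1.40, with overlap, adjusted p = 0.00373), and after quantile normalization neither was called (-0.87 and -0.54), nor the newborn difference with scaling to the median (-0.81). Adult minus near-term was -0.98 with overlap (adjusted p = 0.0419), turned to 0.43 after quantile normalization, and was not called with scaling to the median (-0.46), the slide as a block (-0.82), the replicate block or only the arrays of the ages compared, nor without near-term untreated replicate 2 (-0.95) or 4 (-0.77) or adult untreated replicate 1 (-0.78), 2 (-1.01) or 4 (-0.72). CD86-a was called lower in adult than in premature arteries (-2.69, adjusted p = 0.000669). It passed the filter through the premature arrays alone, with 1 of 4 adult arrays well above background, so this difference is largely against background. CD86-a was not tested against the other ages. Without newborn untreated replicate 4 it passed the filter against newborn arteries through the newborn arrays and was called (-3.10), again with 1 of 4 adult arrays well above background.

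In counts, all 8 probes tested were lower in adult than in premature arteries, beside 56.4% of all probes called and 30.5% called lower. SELP-a, SELP-b, SELP-c and CD86-a were tested through the younger group, with 3, 1, 1 and 1 of 4 adult arrays well above background. With the stricter filter, both groups well above background, none of these was tested, and 4 probes, the 3 of CD14 and CD68-a, were called against premature and 4 against newborn arteries. Against near-term arteries it was 6 of 6, beside 43.4% called and 22.9% lower, and 2 were called after quantile normalization. There SELP-a and SELP-b were tested through the near-term arrays, with 3 and 1 of 4 adult arrays well above background. Against newborn arteries it was 7 of 7, beside 52.2% called and 28.0% lower. In that pair SELP-a, SELP-b and SELP-c were tested through the newborn arrays, with 3, 1 and 1 of 4 adult arrays well above background. Among the 3 younger ages the main test called 0 of 8 for near-term against premature, 0 of 8 for newborn against premature and 0 of 7 for newborn against near-term, with 0 at an unadjusted p under 0.05 and the same fold limit in each. After quantile normalization 3 were called for near-term minus premature, among them CD14-a (-1.30, but 0.47 under normexp) and CD68-a (-0.78, but 0.27 under normexp). With only the arrays of the ages compared 1 was called there and 2 for newborn minus near-term, SELP-a among the latter (1.14), and under normexp 2 were called for newborn minus near-term, among them CD68-a (-0.93, but 0.27 by the main test). Of all probes, 42.4% were called for near-term against premature, 10.9% for newborn against premature and 46.5% for newborn against near-term. The unadjusted limits were passed by 46.3%, 18.8% and 49.9% of all probes in the same order. Adult and near-term arrays shared a scan run, as did premature and newborn arrays. In adult or near-term against premature or newborn arteries the age and the scan run cannot be told apart.

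After PHE the near-term and adult means of SELP-a and CD68-a were again the lowest, while premature and newborn changed places. These levels were not tested between ages. SELP-a had PHE means of 4.97 ± 0.56 premature, 4.23 ± 0.38 newborn, 3.23 ± 0.89 near-term and 0.70 ± 0.92 adult, so that adult arteries after PHE lay within the range of untreated newborn arteries, -0.13 to 1.40, on 2 of 4 arrays. CD68-a had PHE means of -0.55 ± 0.50 newborn, -0.66 ± 0.22 premature, -1.29 ± 0.72 near-term and -2.23 ± 0.96 adult. The premature and newborn arrays overlapped for both probes, by the closest pair alone for SELP-a.

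The main probes of the 4 genes rose and fell together over the 32 arrays, at r = 0.763 (SELP-a and CD86-a) to 0.880 (CD14-a and CD86-a). With group means removed r fell to between 0.267 (SELP-a and CD86-a) and 0.710 (CD14-a and CD86-a). The points share age, treatment, slide and array brightness, so these figures only describe. Of 2011 named genes well above background on at least 16 arrays, those most like SELP-a were LOC100849094 (r = 0.947), ICAM1 (0.944), NFKBIZ (0.933), CCL4L1 (0.931) and CCL2 (0.931). CD14-a was most like CD40 (0.902), CLDN1 (0.893), TNFAIP2 (0.891), TNFAIP6 (0.891) and IRF8 (0.886). CD68-a was most like LOC100849094 (0.935), IRF8 (0.933), TNFAIP2 (0.929), SLC6A4 (0.925) and CD40 (0.921), and CD86-a was most like FCGR1A (0.908), FAM126A (0.904), CD53 (0.899), FAS (0.894) and CEP78 (0.887). ICAM1 and SLC6A4 were named by accession, and the others by the study's supplementary gene table.

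Partners of the 4 genes were read from 6 lists of 121 genes, of which 40 were named on the array, 16 of them by the study's supplementary gene table alone. After PHE, 12 of 27 tested were called in premature arteries, all higher, beside 17.4% of all probes. In near-term arteries 9 were higher and 3 lower of 25 (35.9% of all probes), in newborn arteries 8 of 27 were higher (11.1%), and in adult arteries 3 of 21 were higher (3.84%). The supplementary table names altered genes only, and with names from the other sources the counts were 2 of 12 higher, then 4 higher and 2 lower of 12, then 3 of 11 and 1 of 10 higher.

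Among adhesion genes, partners of SELP at the vessel wall, 11 of 28 were on the array and VCAM1 and PECAM1 were not named there. ICAM1, the endothelial ligand of leukocyte integrins, rose by 3.96, 3.98, 3.56 and 4.61 in premature, near-term, newborn and adult arteries, with 2 of 4 adult untreated arrays well above background. CD44, a receptor for hyaluronan that also binds selectins, rose by 0.95 in premature and 1.76 in near-term arteries, the first not with each array scaled to its median (0.83). The counts were 2 of 6, 2 of 6, 1 of 5 and 1 of 6 higher and none lower, with median differences of 0.59, -0.20, 0.56 and 0.07. CD44 was named by the study's table of altered genes alone, and ICAM1 by accession. SELE, the endothelial E-selectin, was tested at no age.

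Of 15 genes of the endothelial granule that stores P-selectin, 5 were on the array, and VWF, its main content, was not named. RAB27A, which guides the granule, was called higher in premature arteries (2.32), ANGPT2, a stored ligand of the receptor TEK, in newborn arteries (1.65), and PLAT, a stored plasminogen activator, in adult arteries (2.17). ANXA2 was called lower in near-term arteries by -0.66, which turned to 0.06 under normexp and was not called after quantile normalization (-0.36) or within slides (-0.25). The counts were 1 of 5 higher, 1 of 5 lower, 1 of 5 higher and 1 of 4 higher, with medians of 0.87, -0.24, 1.14 and 0.75. RAB27A, ANGPT2 and PLAT were named by the study's table of altered genes alone, so their calls are not independent evidence. With names from the other sources none was called higher, and the medians were -0.17, -0.10, 0.34 and 0.35. The RAB27A call ended with scaling to the median (2.20), and the ANGPT2 call under all 3 other scalings (1.22 to 1.73) and with the replicate block.

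Among 16 partners of CD14 in lipopolysaccharide sensing, 6 were on the array. TLR2 rose by 3.72 in premature and 3.30 in newborn arteries (3 and 2 of 4 untreated arrays well above background), and its near-term difference of 2.21 was called (1 of 4), though not within slides (0.84), and turned to -0.78 under normexp. TLR4, the receptor that CD14 serves, rose by 1.55 in premature arteries, while MYD88, the adaptor of both, was higher by 1.32 there and by 1.18 in near-term arteries (3 of 4 untreated arrays well above background), the latter turning to -0.33 under normexp and -0.62 within slides. IRAK2, a kinase that MYD88 recruits, was on no untreated array well above background in premature and newborn arteries, so that it was at least 7.42-fold and at least 4.95-fold higher after PHE, and it rose by 2.42 in adult arteries (2 of 4). The counts were 4 of 5, 2 of 5, 2 of 5 and 1 of 4 higher, with medians of 1.55, 1.18, 0.92 and 0.58. TLR4, MYD88 and IRAK2 were named by the study's table of altered genes alone, so their calls are not independent evidence. Under normexp the premature calls of TLR4, MYD88 and IRAK2 and the newborn and adult calls of IRAK2 ended, and the adult call of IRAK2 also within slides.

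Of 15 co-stimulation genes, the family of CD86, 6 were on the array and 2 were tested. CD83, a surface marker of activated antigen-presenting cells, rose by 5.37 in premature arteries and 3.32 in near-term arteries (1 of 4 untreated arrays well above background), and in newborn arteries (0 of 4) it was at least 22.8-fold higher. CD40, the receptor for the T cell ligand CD40LG, rose by 2.31 in premature and 2.33 in newborn arteries (4 and 3 of 4 well above), and its near-term difference of 1.58 (2 of 4) was called, though not within slides (0.88) or with the replicate block, and turned to -0.55 under normexp. Both were called at all 3 younger ages by the main test, with medians of 3.84 in premature and 2.45 in near-term arteries, and neither was tested in adult arteries. CD83 and CD40 were named by the study's table of altered genes alone, so their calls are not independent evidence. No co-stimulation gene named from another source was tested. The near-term call of CD83 ended under normexp (0.67) and within slides (2.12).

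Other macrophage genes, beside CD14, CD68 and CD86, did not move in 1 direction. Of 35 such genes 10 were on the array. In premature arteries 3 of 7 were called, CSF1, the macrophage growth factor (1.20), FCGR1A, an antibody receptor (2.14), and CD53, a leukocyte tetraspanin (1.90), with 3 of 4 untreated arrays well above background for the last 2, and none of the 3 was called under normexp (0.49, 0.51 and 0.53), nor CSF1 after quantile normalization (1.17), nor CD53 with scaling to the median (1.78) or the replicate block. In near-term arteries CSF1 rose by 1.87 (3 of 4 untreated arrays well above, not called under normexp, 0.29), while FCER1G, the signalling chain of several antibody receptors, fell by 1.89 and TYROBP, an adaptor of macrophage receptors, fell by 1.44, the other 2 of 5 not being called. In newborn arteries 1 of 8 was called, CSF1 (1.1, not under normexp, 0.90, after quantile normalization, 1.11, or with the replicate block), and in adult arteries 0 of 5 by the main test. The medians were 1.20, -1.44, 0.69 and 0.10. CSF1, FCGR1A and CD53 were named by the study's table of altered genes alone, so their calls are not independent evidence. With names from the other sources 2 genes were tested at each age. None of these was called higher, 1 was called lower in near-term arteries, and the medians were 0.12, -0.96, -0.07 and 0.08.

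The summed scaled signal of these 10 macrophage genes, in multiples of the 75th percentile, went from 2.75 ± 0.46 to 3.47 ± 0.61 in premature arteries after PHE and from 4.54 ± 0.96 to 2.64 ± 0.87 in near-term arteries. The newborn means were 3.01 ± 0.50 and 3.59 ± 0.91, and the adult means 1.80 ± 1.57 and 1.65 ± 0.71, where untreated replicate 3 read 4.10 against 0.788, 1.5 and 0.803 on the others, so the order of the adult means rests on 1 array. CD4 was on no premature, newborn or adult array well above background. The part of cell numbers in the CD14, CD68 and CD86 differences was not tested.

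Of 12 lysosomal genes, kin of CD68 by place, CTSB and CTSD, which encode proteases, were on the array. CTSB rose by 0.92 in near-term and by 0.85 in newborn arteries, and CTSD by 0.61 in near-term arteries, with none of 2 called in premature or adult arteries. The counts were 0, 2, 1 and 0 of 2, the medians 0.45, 0.77, 0.40 and 0.09, and all 3 calls ended with scaling to the median (CTSB 0.77 and 0.84, CTSD 0.46). The newborn call of CTSB ended under normexp too (0.73).

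**Figure D4:**
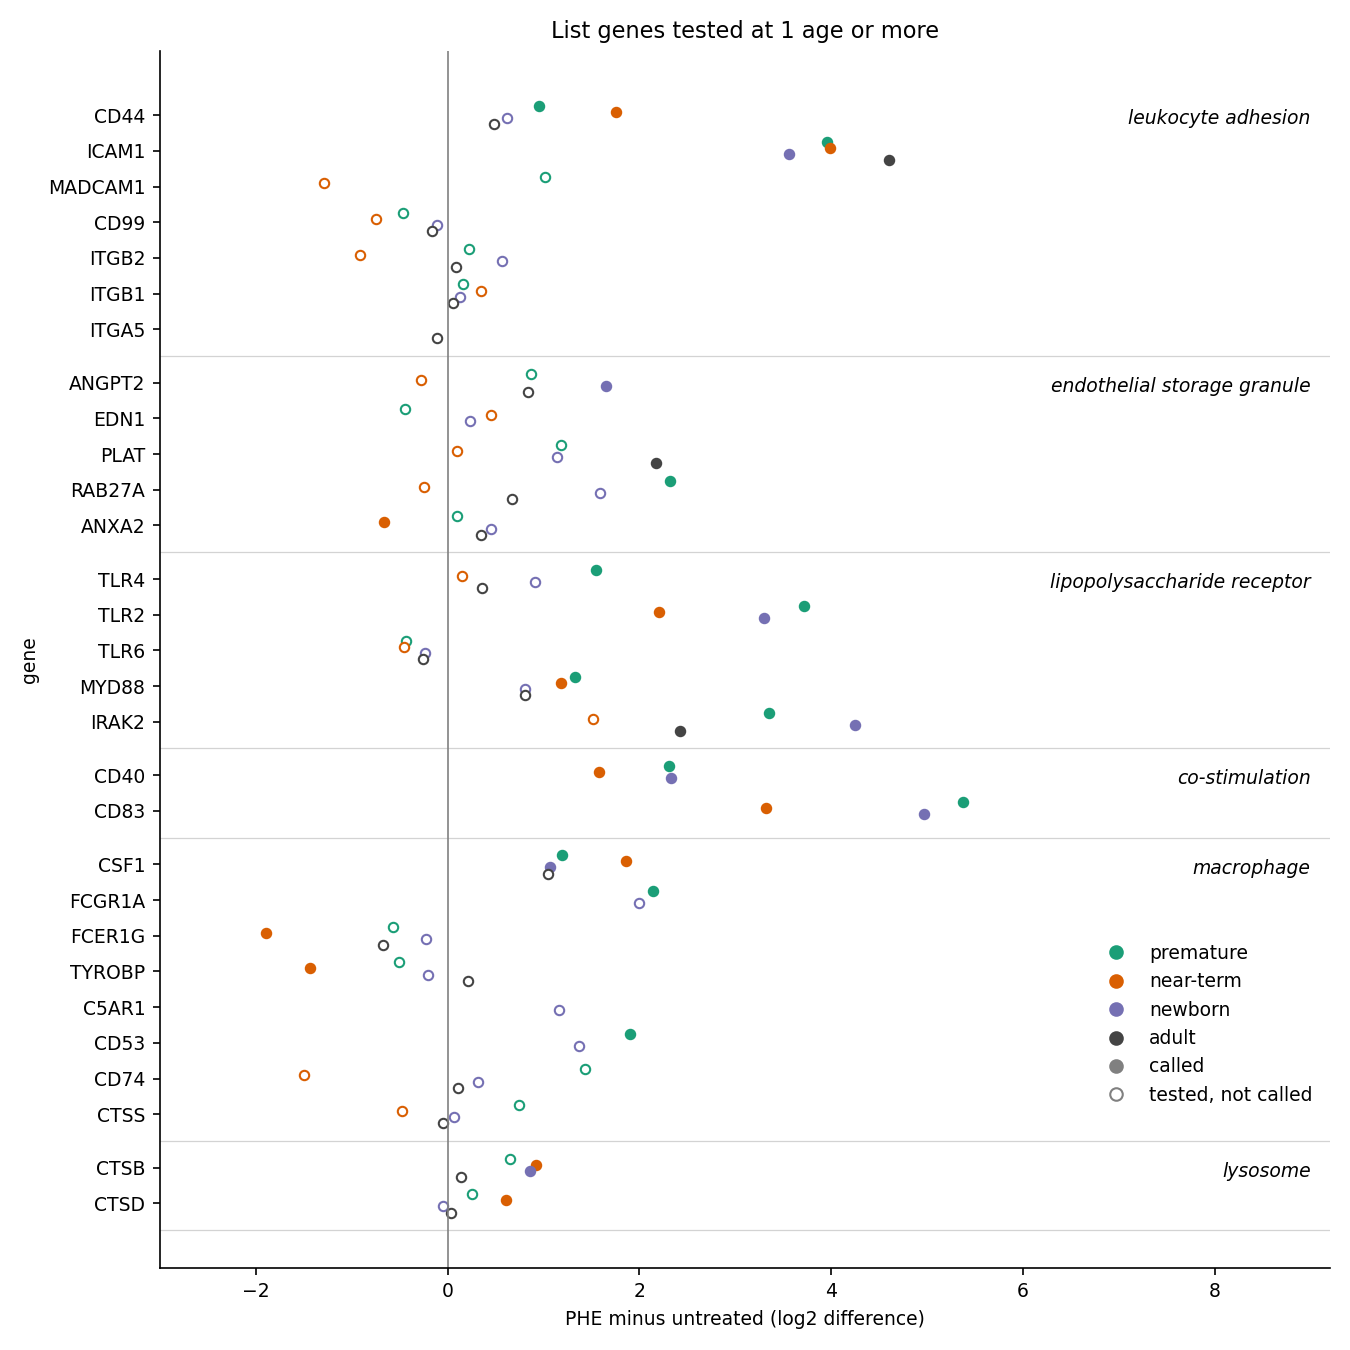
PHE minus untreated (log2 difference, horizontal axis) for the genes of 6 lists that were tested at 1 age or more, by age, filled where called. ICAM1, CD83 and IRAK2 lie farthest to the right, the points of IRAK2 (premature, newborn) and CD83 (newborn) are fitted values with no untreated array well above background, and FCER1G and TYROBP in near-term arteries lie to the left. The called near-term points of TLR2, MYD88, CD40 and ANXA2 change sign under normexp, as do open ones such as IRAK2, TLR4 and RAB27A. Those of MYD88, TLR4 and RAB27A change sign within slides too.

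Markers of other cells that a segment could hold moved as well, and their part in the 4 genes was not tested. All of the called ones below were named by the study's table of altered genes alone, and none of the markers named from other sources was called at any age. S100A9, a protein of neutrophils and monocytes and the only 1 of 8 neutrophil markers on the array, rose by 3.28 in premature and 5.14 in newborn arteries (1 of 4 newborn untreated arrays well above background), the ages at which CD14 and CD86 were called. Its scaled signal went from 0.0620 ± 0.0225 to 0.593 ± 0.186 and from 0.0469 ± 0.0603 to 0.927 ± 0.257. It was 0.225 ± 0.265 and 0.182 ± 0.162 in near-term arteries, not called, where untreated replicate 4 read 0.612 against 0.0412, 0.174 and 0.0706 on the others and alone set the order of the means, and 0.0174 ± 0.0152 and 0.0897 ± 0.137 in adult arteries, not tested. Red cell signal, HBA1 and HBB of 8 markers, was lower after PHE at each age in its mean. It went from 40.9 ± 9.70 to 11.7 ± 0.65 in premature, 16.2 ± 4.82 to 3.98 ± 2.78 in near-term, 29.6 ± 6.48 to 15.4 ± 1.87 in newborn and 5.87 ± 2.76 to 3.22 ± 0.66 in adult arteries, and HBA1 was called lower in the first 2 (-1.96 and -2.38).

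For SELP the cells of interest are endothelium and platelets. None of 10 platelet markers was named on the array. Of 14 endothelial markers 5 were named, and KDR and FLT1 were on no premature, newborn or adult array well above background. ERG, a transcription factor of endothelial cells, rose by 1.65 in premature and 1.43 in newborn arteries, not called under normexp (0.41 and 1.03), and the near-term differences of ERG (1.80), ENG (1.73) and TIE1 (2.34), with 3, 3 and 1 of 4 untreated arrays well above background, were called and turned negative under normexp (-0.18, -0.04 and -0.80). The endothelial sum went from 0.257 ± 0.034 to 0.491 ± 0.096, 0.457 ± 0.346 to 1.01 ± 0.434, 0.313 ± 0.077 to 0.536 ± 0.062 and 0.247 ± 0.093 to 0.246 ± 0.052 in premature, near-term, newborn and adult arteries.

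The tissue itself was plain from CNN1, calponin of smooth muscle and the only 1 of 8 such markers named, at 33.9 ± 3.6 and 28.4 ± 3.5 (untreated, PHE) in premature, 260.0 ± 117 and 165 ± 92.9 in near-term, 124 ± 30.9 and 107 ± 20.1 in newborn and 417 ± 140 and 432 ± 69.1 in adult arteries, called at no age. Fibroblast genes, 4 of 6, were called higher for 1 of 4 in premature and 3 of 4 in near-term arteries and for none in newborn and adult arteries. Their sums were 91.2 ± 4.71 and 78.5 ± 10.6, 38.9 ± 26.5 and 74.7 ± 38.1, 33.7 ± 13.2 and 56.1 ± 4.24, and 11 ± 5.01 and 11.1 ± 8.15 for untreated and PHE arteries in the order of ages. Lymphocyte markers, 3 of 11, were called for CD3G in near-term arteries alone (1.61), with sums of 1.52 ± 0.111 and 1.88 ± 0.213, 1.33 ± 0.468 and 3.37 ± 0.567, 1.44 ± 0.205 and 1.38 ± 0.221, and 1.66 ± 0.498 and 1.52 ± 0.176. PTPRC, the common leukocyte antigen, was not named on the array.

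The share of calls that were higher depended on scaling and background correction. It moved most under normexp in near-term arteries and with scaling to the median in newborn arteries. With the 75th percentile the median difference of all probes after PHE was -0.08, -0.08, -0.08 and -0.04 in premature, near-term, newborn and adult arteries. It was -0.21, -0.42, 0.04 and 0.01 under normexp, -0.20, -0.23, -0.09 and -0.12 with scaling to the median, and -0.12, -0.03, -0.10 and -0.07 after quantile normalization. The share of calls that were higher moved from 48.9% to 17.6% in near-term and from 53.4% to 64.1% in newborn arteries under normexp, and to 71.1% in newborn arteries with scaling to the median. SELP-a was called higher at each age under all 3 of these.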

How the data were processed

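RNA of middle cerebral artery segments was measured on 32 1-colour Agilent arrays, 4 in each of 8 groups, which the labels give by age and treatment. The authors' deposited scanner files hold, for each of 15744 spots, an intensity with the background subtracted by Agilent Feature Extraction. The 536 control spots and spots marked as outliers were left out, spots of 1 probe were averaged, and log2 intensity was taken relative to the 75th percentile of the array. Depth, as that percentile over the median background, ranged from 1.43 to 20.3, and 59.6% to 95.7% of probes were well above background per array.

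Groups were compared with limma 3.58.1 (lmFit and eBayes, R 4.3.3) as 8 group means with 1 spread per probe, and p was adjusted by Benjamini-Hochberg over all probes tested in a comparison. Tested probes had all 4 spots of at least 1 compared group marked well above background, and a call was made at an adjusted p under 0.05 and a fold of at least 1.5. The comparisons were PHE against untreated at each of 4 ages, the difference of these between 6 pairs of ages, and untreated arteries between the same pairs. The model was tested on simulated data. Where no array of a group was well above background, the fold is a lower bound against the higher of the lowest signal well above background and the measured signal of each array. Tables and figures were made with Python 3.11.15, numpy 2.4.6, pandas 2.3.3 and matplotlib 3.10.9.

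Of 15008 probes, 543 were named by their accession through RefSeq (assembly ARS-UI_Ramb_v3.0), 1881 only by matching group means to the study's supplementary gene table, and 642 only by the name in the array file. The other 11942 had no symbol. Of 65 probes named by accession and table, 60 had the same symbol in both. The table was matched within a relative tolerance of 0.001, for near-term arteries without PHE replicate 1, where 1101 of 1106 genes matched 1 probe, against 12 with it. In newborn and adult arteries 1012 of 1016 and 437 of 438 genes matched 1 probe. Premature matches were less certain, with 1161 of 1269 genes matching 1 probe and 105 several, and with 93 matching 1 probe after the table values were shifted on purpose, against 3, 0 and 0 at the other ages.

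The text names every probe of the members, genes of the lists called at any age, the 5 genes most like each member, and markers of other cells. The members and the 14 lists, 6 about the members and 8 of other cells, of which 7 are reported (endothelium, platelet, smooth muscle, neutrophil, lymphocyte, red cell, fibroblast), were chosen with earlier results of these data known. Where several probes had 1 symbol, the list genes used the brightest. Whether equal replicate numbers mark the same animal is not stated. Across 7112 probes, the deviations of equally numbered untreated and PHE arrays correlated at 0.354 to 0.545 (premature), 0.493 to 0.592 (newborn), -0.196 to 0.336 (near-term) and -0.0980 to 0.0392 (adult). Every premature and newborn array had its best match in the other treatment at its own number, in the same column of the slide. In near-term arteries only pair 4 matched in this way by number, and in adult arteries no pair did. The main test did not use the replicate number, which was tried as a block as an alternative.

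The alternatives were quantile normalization, the median as the scale, background correction by normexp (offset 50), no filter on dim probes, a stricter filter, only the arrays of the ages compared, the replicate number or the slide as a block, outlier spots kept, a floor of 0.01, the series matrix values, 1 probe per gene, the methods' t-test with and without adjustment, and a fit without each of the arrays, 1 at a time. The alternatives without 2 near-term arrays together and without names from the gene table were chosen after seeing the data.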

Additional observations from a re-analysis of the deposited data

Results flagged for a closer look

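In each group of 4 arrays, the highest or lowest value is given here when its gap to the nearest other array, as a share of the range of the group, passed Dixon's 95% critical value for 4 values. Chance gives such a value in about 1 in 20 groups, and 72 groups were looked at for the 9 probes. There were 4 such values. SELP-b was lowest on near-term untreated replicate 3, at -3.44, where the nearest array read -2.68. SELP-b was highest on adult untreated replicate 3, at -2.65, where the nearest read -6.63 and only replicate 3 was well above background. CD14-a was lowest on near-term PHE replicate 2, at -3.62, where the nearest read -2.34. CD86-b was highest on adult PHE replicate 4, at -5.55, where the nearest read -7.15 and no array of the group was well above background. What set these arrays apart was not tested.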

How the results depend on the processing

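SELP-a kept its direction after PHE at every age under all alternatives that tested it, and lost its call under the methods' t-test with adjustment (near-term 3.65, adult 4.23). It was not tested in adult arteries where all groups compared had to be well above background, since 3 of 4 untreated arrays were. The calls of CD14-a, CD86-a and CD68-a lay closer to the threshold, and the cause of the changes below was not tested.

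With normexp, PHE differences became 0.50 (CD14-a) and 0.45 (CD86-a) in premature arteries, -1.0 (CD14-a), -1.08 (CD14-b) and -0.10 (CD68-a) in near-term arteries, 0.94 (CD14-a) and 1.21 (CD86-a) in newborn arteries, and 0.90 (CD68-a) and 0.46 (CD86-a) in adult arteries. Member probes called became 3, 4 and 1 in premature, newborn and adult arteries, all probes called 1153 premature and 610 newborn, and list genes called 7 premature and 5 newborn. Between ages it gave, for near-term minus premature, -0.58 (CD68-a) with 1 member probe called, 0.0029 for CD86-a (adult minus premature), 0.35 for SELP-a (newborn minus near-term) with 6 called, 2 called for adult minus near-term, and -0.28 for SELP-a (adult minus newborn). In untreated arteries it gave 0.47 (CD14-a) and 0.27 (CD68-a) for near-term minus premature, -0.46 (CD86-a) for newborn minus premature, and -0.83 (CD14-a) and -0.93 (CD68-a) for newborn minus near-term, with 2 called.

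Quantile normalization gave PHE differences of 1.1 (CD14-a) and 0.94 (CD68-a, then called) in premature, 1.24 (CD14-a) in newborn and 0.97 (CD68-a) in adult arteries, with 4 member probes called in near-term and 1 in adult arteries. Between ages it gave -0.16 (CD14-a, adult minus premature), 0.050 (SELP-a, newborn minus near-term), -0.027 (SELP-a), -0.0021 (CD14-a) and -0.14 (CD68-a) for adult minus near-term, and -0.077 (SELP-a, adult minus newborn). In untreated arteries it gave -0.89 (CD86-a) with 3 called for near-term minus premature, and 0.43 (CD14-a) with 2 called for adult minus near-term. Scaling to the median gave 0.98 (CD14-a, premature) and 0.83 (CD68-a, near-term, 1 member probe called), 1177 premature and 682 newborn probes called, 0.0049 for SELP-a (newborn minus near-term, 1 called) and 3 called for untreated adult minus near-term.

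Without a filter on dim probes, CD14-a premature (1.10) and newborn (1.19), CD86-a newborn (1.99) and CD68-a adult (1.24) were not called, with 3, 4 and 1 member probes called in premature, newborn and adult arteries and 5 list genes called in adult arteries. With probes well above background in all groups compared, CD14-a premature (1.10) was not called, 1 member probe was called in adult arteries, and 4 were called in untreated adult minus premature and 4 in adult minus newborn. With outlier spots kept, or with the series matrix values, CD14-a premature (1.10) was not called.

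With only the arrays of the ages compared, CD68-a was called in premature arteries (0.92) and not in near-term (0.99) or adult arteries (1.24), 1 member probe was called in each of the last 2, and all probes called were 3007, 131, 1886 and 161 in premature, near-term, newborn and adult arteries. Untreated comparisons then had 1 (near-term minus premature), 2 (newborn minus near-term) and 2 (adult minus near-term) member probes called. With the replicate block, CD14-a (1.10) and CD86-a (1.96) in premature arteries, CD14-a (1.19) and CD86-a (1.99) in newborn arteries and CD68-a in adult arteries (1.24) were not called, with 2, 4 and 1 member probes called. With the slide as a block, near-term CD14-b was -0.052, CD14-c 0.57 and CD68-a 0.65 (1 member probe called), and adult CD68-a 1.20 (1 called). Between ages it gave -0.27 (CD68-a, near-term minus premature, 1 called), 1 called for newborn minus near-term, and 0.15 (CD14-a, adult minus newborn).

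The methods' t-test called CD68-a in premature arteries (0.92) and not in near-term (0.99) or adult arteries (1.24), with 2957, 1936, 1957 and 655 probes called. With adjustment it called CD68-a in premature arteries (0.92) but not near-term SELP-a (3.65) or CD68-a (0.99), newborn CD14-a (1.19), or adult SELP-a (4.23) or CD68-a (1.24), with 0 member probes called in near-term and 0 in adult arteries and 18 and 9 of all probes. Chosen after seeing the data, names not from the gene table left 2, 6, 3 and 1 list genes called in the order of ages. Also chosen then, near-term PHE array 1 and untreated array 4 left out together gave 1, 2 and 1 member probes called for the difference of near-term from premature, newborn and adult arteries, 0.013 (SELP-a, newborn minus near-term), -0.067 (CD68-a, adult minus near-term), and -0.46 (CD86-a) with 1 called for untreated near-term minus premature.

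Leaving out 1 array at a time, PHE differences ran from 0.94 to 1.21 (CD14-a) and 1.84 to 2.15 (CD86-a) in premature, 0.50 to 1.02 (CD14-a) and 0.68 to 1.19 (CD68-a) in near-term, 0.90 to 1.39 (CD14-a) and 1.84 to 2.11 (CD86-a) in newborn, and 0.92 to 1.61 (CD14-a) and 0.90 to 1.66 (CD68-a) in adult arteries. Member probes called ran from 1 to 3, 1 to 5, 3 to 6 and 1 to 6, and all probes called from 706 to 1105 in newborn and 240 to 562 in adult arteries. Differences between ages ran from -0.23 to 0.27 (CD68-a, near-term minus premature), -0.19 to 0.29 (CD14-a) and -0.16 to 0.15 (CD86-a) for newborn minus premature, -1.17 to 0.071 (SELP-a), -0.17 to 0.51 (CD14-a) and -0.018 to 0.74 (CD68-a) for adult minus premature, -0.57 to 0.11 (SELP-a, newborn minus near-term), -0.17 to 1.08 (SELP-a) and -0.089 to 0.67 (CD68-a) for adult minus near-term, and -0.031 to 1.21 (SELP-a), -0.27 to 0.42 (CD14-a) and -0.55 to 0.21 (CD68-a) for adult minus newborn, with 0 to 2, 0 to 2 and 0 to 1 member probes called for near-term minus premature, newborn minus near-term and adult minus near-term. In untreated arteries they ran from -0.46 to 0.64 (CD86-a, near-term minus premature, 0 to 1 called) and -0.48 to 0.0015 (CD14-a, newborn minus premature), with 3 to 6 called for adult minus near-term.

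Near-term signal over background was as low as 1.43 on untreated replicate 4 and 4.64 on PHE replicate 1, so these 2 arrays were the dimmest of their groups.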
